A study of Mus musculus with 9 samples.

Results

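The 6 genes Lpcat1, Lpcat2, Lpcat3, Lpcat4, Lpgat1 and Mboat1 encode lysophospholipid acyltransferases and were followed across bone marrow derived macrophages, as 6 of the 18193 genes that the arrays could name singly. The genes were taken by symbol, from rows whose annotation gives only that symbol, and where a gene had several probe sets, the one used was chosen by its mean signal over all 9 arrays, the highest being taken. The genes themselves were proposed with results of these data known, so the differences below are measurements of chosen genes. The 6 genes held 16 probe sets in all, and none of the genes was removed by a filter on low signal.

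Macrophages were grown from marrow of C57BL6 mice of 6 to 12 weeks and used on day 6 in vitro. All cells first received ultrapure LPS (lipopolysaccharide, a bacterial cell wall component) at 33 ng/mL for 3 h. The 3 groups then received TMT (trimethyltin hydroxide) at 1.25 µM, TET (triethyltin bromide) at 10 µM, or sterile saline for 6 h, with 3 arrays each. The organotins were used to activate the NLRP3 inflammasome, and their doses differ, so a difference between TET and TMT is one of compound and dose together. No unprimed cells were analysed here, so nothing below shows what LPS itself does to these genes. The 3 replicates of a group are called biological in the labels, with no word on whether different mice gave them, so the spread that the p-values rest on may be technical.

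Lysophospholipid acyltransferases put a fatty acid back on phospholipids that have lost one to a phospholipase, the remodelling route known as the Lands cycle. By choosing the fatty acid they set how saturated a membrane is and how much arachidonic acid it holds for making lipid mediators. Lpcat1, Lpcat2, Lpcat4 and Lpgat1 belong to the family of the AGPAT enzymes, and Lpcat3 and Mboat1 to the family of membrane-bound O-acyltransferases. In macrophages Lpcat2 is also known for acetylating lyso-PAF, the last step in making platelet-activating factor, a strong inflammatory lipid.

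Under TET the mRNA signal fell for the 3 enzymes of this set that act mainly on lysophosphatidylcholine, Lpcat1, Lpcat2 and Lpcat3. Under TMT Lpcat2 rose, Lpcat4 and Mboat1 fell, and the Lpcat3 estimate was near 0. In limma's test over all genes (adjusted p under 0.05), 3 of the 6 genes passed under TMT against saline, 1 higher and 2 lower, where 27.8% of all genes passed (14.3% higher and 13.4% lower). Under TET against saline 4 of the 6 passed, 1 higher and 3 lower, where 50.8% of all genes passed (27.4% higher and 23.4% lower), so the share of members was near that of the whole table. The gene higher under TET is Lpgat1 by its brightest probe set, and with the probe set brightest in saline 0 of the 6 rose and 4 fell. The median log2 fold change of the 6 was −0.38 under TMT and −0.75 under TET, beside 0.01 and 0.09 over all genes. Of the 6 genes, 5 are at or above the median brightness, and the 9097 such genes, tested alone, had medians of 0.03 under TMT and −0.19 under TET. Of those bright genes, 26.7% rose and 24.2% fell under TMT, and 24.2% rose and 42.5% fell under TET. The arrays of the 2 groups did not overlap for 4 of the 6 genes under TMT, 1 higher and 3 lower, where that held for 44.7% of all genes (23.7% higher and 21% lower). Under TET they did not overlap for 4 of the 6, 1 higher and 3 lower, against 58.7% of all genes (32.5% higher and 26.1% lower). The higher one is Lpgat1, whose probe set brightest in saline lay below the saline range instead (7.30 to 7.67 against 8.64 to 8.94). Both comparisons use the same 3 saline arrays.

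**Figure D1:**
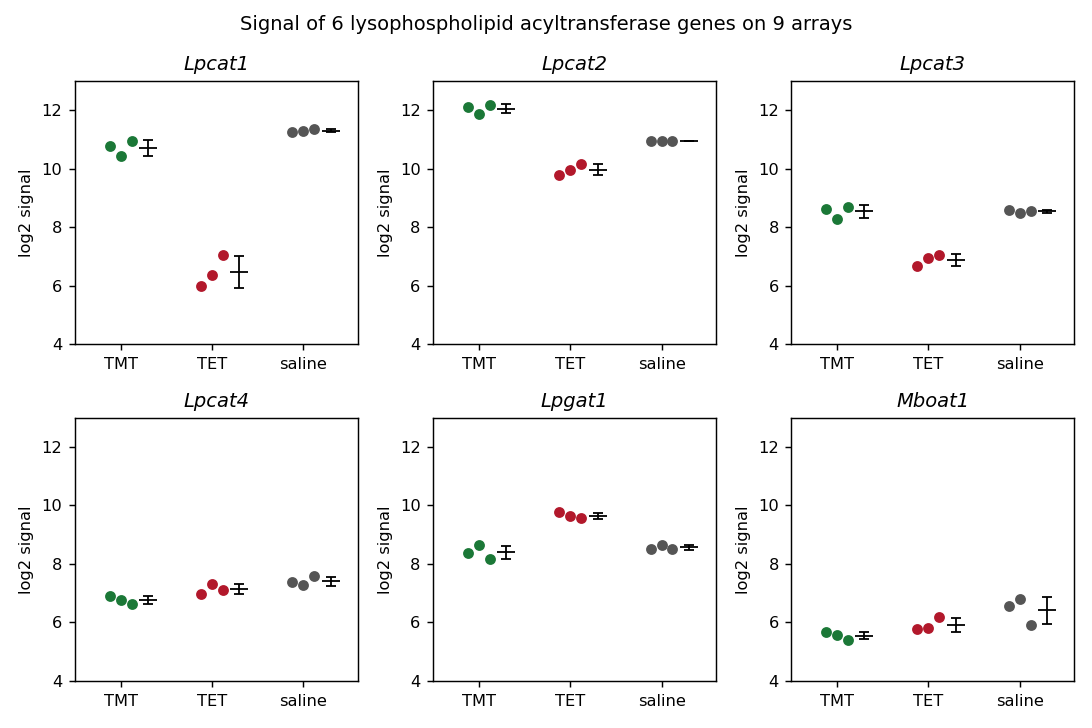
Log2 signal of the 6 genes on each of the 9 arrays (coloured points, by group on the horizontal axis), with the group mean and SD (black, n = 3). Lpcat1, Lpcat2 and Lpcat3 are lower on every TET array than on any saline array, and Lpcat2 is higher on every TMT array than on any saline array; heights are not comparable between genes.

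Lpcat1 makes dipalmitoyl phosphatidylcholine, the main lipid of lung surfactant, and can also make platelet-activating factor. Its brightest probe set, 1451359_at, read 10.78, 10.42 and 10.95 under TMT and 5.98, 6.36 and 7.06 under TET, against 11.27, 11.28 and 11.36 in saline (log2 signal). Every TET array lay more than 3 log2 units below every TMT and saline array, and the TMT arrays lay just below the saline range. Under TET the gene fell 28.7-fold (95% interval 19.9 to 41.3; log2 fold change −4.84, SE 0.24, adjusted p = 1.5e-07, lower in 3 of 3 arrays). By this probe set it was the lowest log2 fold change of the 18193 genes, a rank that was known when the genes were chosen. The TET values lie near the array medians over all probe sets, 6.16 to 6.19, and the deposited table carries no detection call or background level.

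Under TMT, Lpcat1 was 1.5-fold lower (−0.59, SE 0.24, 95% interval −1.11 to −0.06) and did not pass in the fit of all 9 arrays (adjusted p = 0.0999), although its 3 arrays lay below the saline range. That test shares the wide spread of the TET arrays (SD 0.55, against 0.27 under TMT and 0.05 in saline). Without TET replicate 1 the same difference had an adjusted p of 0.040, without TET replicate 3 one of 0.015, and with the 6 arrays of the comparison alone one of 0.011. Without TET replicate 2 it was 0.12, and in 16 of 21 alternatives the difference did not pass. The adjusted p-values over all of them ran from 0.0016 (with array weights) to 0.42. The order of Lpcat1 levels was therefore TET, TMT and saline from low to high, with only the neighbours TMT and saline not told apart by the test.

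The 5 probe sets of Lpcat1 moved by very different amounts. Under TET, 1424460_s_at read 7.57, 7.38 and 7.11 against 9.82, 9.86 and 9.79 in saline, a fall of 5.55-fold (−2.47, SE 0.12). Probe set 1424459_at read 6.89, 5.67 and 6.32 under TET against 8.47, 8.25 and 8.38 in saline, a fall of 4.21-fold (−2.07, SE 0.25). The annotation draws these 2 and the brightest one from 1 source sequence, and all 3 fell under TET with no overlap of the groups. The other 2 come from a second source sequence. Of these, 1420294_at read 6.30, 5.75 and 5.96 under TET against 6.30, 6.56 and 6.60 in saline (−0.48, SE 0.14, adjusted p = 0.019 over all probe sets), with 1 value shared by the 2 groups. Probe set 1420293_at stayed between 2.54 and 3.01 under TET and between 2.44 and 2.68 in saline (0.13, SE 0.14, adjusted p = 0.48), close to the lowest value of the table, 2.05.

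Under TMT the 5 probe sets of Lpcat1 had log2 fold changes of −0.67 to −0.12, all below 0, and 1 of them, 1424460_s_at, passed (9.46, 9.28 and 9.49 under TMT against 9.82, 9.86 and 9.79 in saline; −0.42, SE 0.12, adjusted p = 0.032 over all probe sets). Averaged over its probe sets, the log2 fold change of Lpcat1 was −0.39 under TMT (adjusted p = 0.018) and −1.95 under TET (adjusted p = 2.0e-07). Over all 21 alternatives the limma adjusted p of Lpcat1 under TET was at most 6.8e-06. The direction of the TET fall was shared by the 4 brighter probe sets, and its size was not.

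**Figure D2:**
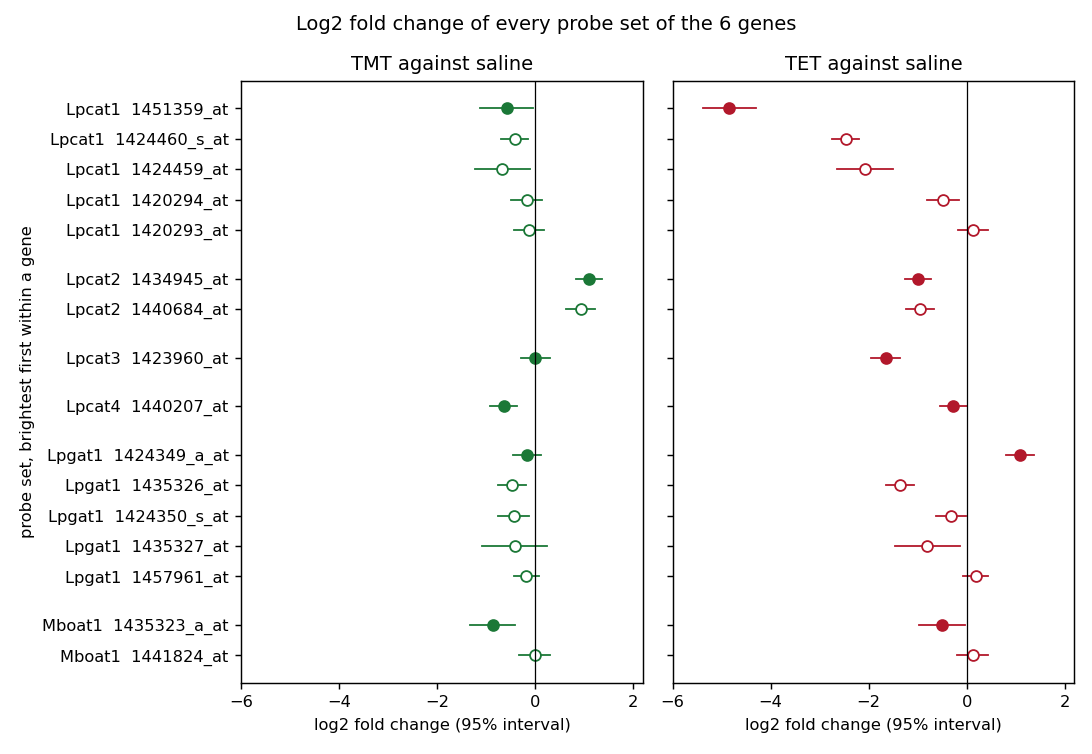
Log2 fold change against saline (horizontal axis) of the 16 probe sets, under TMT (left) and TET (right), with 95% intervals; filled points mark the probe set that stands for its gene. The Lpcat1 points under TET spread from −4.84 to 0.13, the Lpcat2 points lie together, and the Lpgat1 points lie on both sides of 0.

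Lpcat2, an enzyme known to be induced by LPS in mouse macrophages, moved in opposite directions under the 2 organotins. Its brightest probe set, 1434945_at, read 12.13, 11.87 and 12.17 under TMT and 9.78, 9.97 and 10.16 under TET, against 10.95, 10.96 and 10.96 in saline. All TMT arrays lay above the saline range and all TET arrays below it. It rose 2.14-fold under TMT (95% interval 1.79 to 2.56; 1.10, SE 0.12, adjusted p = 5.5e-05) and fell 1.98-fold under TET (1.66 to 2.37; −0.99, SE 0.12, adjusted p = 6.8e-05). Its other probe set, from a separate source sequence, read 7.29, 7.41 and 7.43 under TMT and 5.44, 5.41 and 5.63 under TET, against 6.30, 6.73 and 6.30 in saline, with log2 fold changes of 0.93 and −0.95. Lpcat2 was 4.24-fold lower in TET than in TMT cells (−2.08, SE 0.12, adjusted p = 3.7e-07), so the 3 groups stood in the order TET, saline, TMT with every neighbour passing the test. All 21 alternatives kept each of the 3 calls.

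Lpcat3 puts polyunsaturated fatty acids, arachidonic acid among them, into phosphatidylcholine and is a known target of the oxysterol receptor LXR. Its probe set 1423960_at read 8.64, 8.30 and 8.69 under TMT and 6.67, 6.94 and 7.05 under TET, against 8.59, 8.48 and 8.57 in saline. The TMT arrays surrounded the saline values, and the TET arrays all lay more than 1 log2 unit below both. It fell 3.15-fold under TET (95% interval 2.57 to 3.86; −1.66, SE 0.13, adjusted p = 4.2e-06). Under TMT the difference was 0.00070 (SE 0.13, 95% interval −0.29 to 0.29), which leaves room for a change of up to about that size in either direction. In TET cells it was 3.15-fold lower than in TMT cells (−1.66, SE 0.13, adjusted p = 3.9e-06), and the TET calls were kept in all 21 alternatives. Lpcat3 had 1 probe set, so its result has no other probe set beside it.

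These 3 genes fell together under TET, and the 250 bases before an annotated start site of each are shown for that reason (RefSeq, GRCm38.p6, 5′ to 3′, all on the + strand). They are chr13:73466981-73467230 for Lpcat1, chr8:92855083-92855332 for Lpcat2 and chr6:124662854-124663103 for Lpcat3. The annotated genes begin at 73467231, 92855313 and 124663094, so the last bases of the Lpcat2 and Lpcat3 stretches lie inside the gene. Capitals mark matches, on either strand, to any of 8 motifs that were searched.
Lpcat1: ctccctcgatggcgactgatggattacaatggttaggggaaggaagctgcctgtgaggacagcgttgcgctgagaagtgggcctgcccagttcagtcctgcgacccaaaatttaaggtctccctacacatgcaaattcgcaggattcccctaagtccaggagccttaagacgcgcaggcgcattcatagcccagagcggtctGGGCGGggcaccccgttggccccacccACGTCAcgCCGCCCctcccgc
Lpcat2: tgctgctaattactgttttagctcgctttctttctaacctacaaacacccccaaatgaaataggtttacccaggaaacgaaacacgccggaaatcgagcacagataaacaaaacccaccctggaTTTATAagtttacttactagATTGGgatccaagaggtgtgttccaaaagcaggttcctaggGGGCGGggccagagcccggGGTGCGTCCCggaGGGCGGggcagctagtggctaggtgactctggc
Lpcat3: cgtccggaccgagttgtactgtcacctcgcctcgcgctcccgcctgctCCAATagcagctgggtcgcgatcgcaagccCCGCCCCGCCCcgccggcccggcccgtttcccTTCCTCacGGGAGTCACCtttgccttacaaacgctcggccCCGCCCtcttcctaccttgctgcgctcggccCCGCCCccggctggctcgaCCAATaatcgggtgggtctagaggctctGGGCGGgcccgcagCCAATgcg

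The 3 stretches share the GC box GGGCGG, the letters bound by Sp1-type factors, with 2 matches for Lpcat1, 2 for Lpcat2 and 5 for Lpcat3. The other members have it too, with 3 matches for Lpcat4, 1 for Mboat1, and 3 and 2 in the 2 stretches of Lpgat1. The GC box occurs in 32.7% of the 32851 RefSeq promoter stretches of that length, so it does not set these genes apart, and 2 of the Lpcat3 matches overlap each other. The CREB core TGACGT had 1 match at Lpcat1, beginning 21 bases before the start site (6.47% of stretches), and none at the other 2. The NF-kB pattern (GGGA, then any 4 bases, then CC) had 1 match at Lpcat2 and 1 at Lpcat3 (17.6%). It also had 2 matches at Mboat1 and 1 in 1 of the 2 Lpgat1 stretches. The CCAAT box CCAAT had 1 match at Lpcat2 and 3 at Lpcat3 (33.8%), the TATA box TATAAA 1 at Lpcat2 (12.4%), and the PU.1 core GAGGAA 1 at Lpcat3 (23.3%). The heat shock element GAANNTTC (6.69%) and the ATF4 composite element TGATGNAA (3.45%) had 0 matches at the 3 genes. No other matches overlap in the 3 stretches shown. A match describes letters and shows no binding.

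Lpcat4 acts mainly on lysophosphatidylethanolamine. Its probe set 1440207_at read 6.89, 6.76 and 6.63 under TMT and 6.98, 7.33 and 7.11 under TET, against 7.38, 7.27 and 7.58 in saline. The TMT arrays all lay below the saline range, and 1 of the 3 TET arrays lay inside it. Lpcat4 fell 1.57-fold under TMT (95% interval 1.29 to 1.89; −0.65, SE 0.12, adjusted p = 0.0026), a call kept in all 21 alternatives. Under TET it was 1.21-fold lower (−0.27, SE 0.12, 95% interval −0.54 to 0.01) and did not pass (adjusted p = 0.093). It passed without TET replicate 2 (−0.36, adjusted p = 0.036), and its adjusted p ran from 0.036 to 0.82.

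Lpcat4 was higher in TET than in TMT cells by 0.38 (SE 0.12, adjusted p = 0.027, range over alternatives 0.013 to 0.41). That call was lost without TMT replicate 2 (0.38, adjusted p = 0.057), TMT replicate 3 (0.31, adjusted p = 0.097) or TET replicate 2 (0.28, adjusted p = 0.085). The levels stood in the order TMT, TET, saline, with the neighbours TET and saline not told apart.

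Mboat1 acylates lysophosphatidylethanolamine and lysophosphatidylserine. Its brightest probe set, 1435323_a_at, read 5.68, 5.56 and 5.41 under TMT and 5.76, 5.81 and 6.17 under TET, against 6.55, 6.80 and 5.91 in saline. The TMT arrays lay below the saline range, while TET replicate 3 lay inside it. These values lie on either side of the array medians over all probe sets, 6.08 to 6.19. All of them are below the median over genes of the mean signal, 6.82. Mboat1 fell 1.83-fold under TMT (95% interval 1.33 to 2.52; −0.87, SE 0.21, adjusted p = 0.0094). Its dimmer probe set, from another source sequence, read 5.30 to 5.53 under TMT against 5.39 to 5.51 in saline and had a log2 fold change of −0.01 (SE 0.14, adjusted p = 0.98). The fall of Mboat1 thus rests on 1 of its 2 probe sets, one whose name marks it as able to bind several transcripts.

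Under TET, Mboat1 was 1.42-fold lower (−0.51, SE 0.21, 95% interval −0.97 to −0.05) and did not pass (adjusted p = 0.064, range over alternatives 0.0040 to 0.48). Saline replicate 3 was the lowest of its group, and without it the difference was −0.76 (adjusted p = 0.0040). The difference also passed without TET replicate 3 (−0.64, adjusted p = 0.040). TET and TMT cells differed by 0.36 (SE 0.21, adjusted p = 0.16, 95% interval −0.10 to 0.82), so the order TMT, TET, saline held only between its ends.

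Lpgat1, an enzyme first described as acylating lysophosphatidylglycerol, gave opposite answers from different probe sets under TET. The brightest, 1424349_a_at, read 8.37, 8.64 and 8.17 under TMT and 9.76, 9.64 and 9.56 under TET, against 8.52, 8.66 and 8.51 in saline. All TET arrays lay above the others, and TMT and saline overlapped. By this probe set Lpgat1 rose 2.13-fold under TET (95% interval 1.76 to 2.57; 1.09, SE 0.12, adjusted p = 4.6e-05) and was 1.13-fold lower under TMT (−0.17, SE 0.12, 95% interval −0.44 to 0.10, adjusted p = 0.38).

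The next brightest probe set of Lpgat1, 1435326_at, read 8.31, 8.44 and 8.22 under TMT and 7.32, 7.67 and 7.30 under TET, against 8.64, 8.94 and 8.80 in saline. It fell 2.57-fold under TET (−1.36, SE 0.13, adjusted p = 1.6e-05 over all probe sets) and 1.39-fold under TMT (−0.47, SE 0.13, adjusted p = 0.022), with no overlap in either comparison. Over all 9 arrays its mean was 8.18, against 8.87 for the brightest. The mean of 1435326_at was 7.43 in TET cells, where 1424349_a_at had 9.65, but it was 8.79 ± 0.15 in saline cells, where 1424349_a_at had 8.56 ± 0.08 (SD, n = 3). Choosing on the saline arrays alone, an alternative chosen after seeing the data, turns the TET call of Lpgat1 to a fall. Of the other 3 probe sets, 1435327_at fell under TET (−0.80, SE 0.30, adjusted p = 0.047 over all probe sets). Probe set 1424350_s_at was lower under TET (−0.32, SE 0.14, adjusted p = 0.076), though it shares its source sequence with the one that rose. The dimmest, 1457961_at, read 4.24 to 4.63 under TET against 4.19 to 4.24 in saline (0.18, SE 0.11, adjusted p = 0.20). Under TMT all 5 estimates lay below 0, between −0.47 and −0.17, and 2 of them passed. Averaged over probe sets, Lpgat1 was lower by 0.24 on the log2 scale under TET (adjusted p = 0.080), and no direction is given for the gene as a whole under TET.

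Between TET and TMT cells, 5 of the 6 genes passed, 2 higher and 3 lower in TET cells, where 51.8% of all genes passed (28.1% higher and 23.7% lower). With the probe set of Lpgat1 that is brightest in saline, 1 was higher and 4 were lower. All 6 genes showed no overlap between these groups, 3 higher and 3 lower, where that held for 57% of all genes (32.5% higher and 24.5% lower). Lpgat1 counts as higher here by its brightest probe set. Its probe set brightest in saline lay lower in TET cells (7.30 to 7.67) than in TMT cells (8.22 to 8.44), also without overlap. Mboat1 was the gene that did not pass, and the higher value of Lpgat1 in TET cells (1.26, SE 0.12, adjusted p = 1.5e-05) held for the brightest probe set and was −0.89 for the next.

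Arrays within a group correlated at 0.990 to 0.998 across genes, and the interquartile range of the signal was narrower on TET arrays (3.45 to 3.55) than on TMT (3.78 to 3.86) and saline arrays (3.83 to 3.88). The 9 macrophage markers had high mean log2 signals, 12.10 to 12.36 under TMT, 12.19 to 12.32 under TET and 12.40 to 12.44 in saline, with 2 higher and 3 lower under TMT and 1 higher and 4 lower under TET. Lists of neutrophil, T and NK, B, erythroid and stromal markers had mean signals of 4.59 to 7.39 on every array, with S100a8, S100a9 and Pdgfrb far above these means. S100a9, a neutrophil marker, averaged 9.16 under TMT and 9.20 under TET, against 10.86 in saline, and fell 3.24-fold and 3.16-fold. S100a8, of the same list, averaged 10.81 under TMT and 10.03 under TET, against 10.36 in saline. It passed in neither comparison (0.45 under TMT, limma adjusted p = 0.052, and −0.33 under TET, limma adjusted p = 0.098). Under TMT 3 of 7 neutrophil and 2 of 5 T and NK markers fell and 2 of 6 stromal and endothelial markers rose. Of all genes, 14.3% rose and 13.4% fell under TMT, and 27.4% rose and 23.4% fell under TET. Under TET, 4 of 6 stromal and endothelial, 3 of 4 B cell and 2 of 3 erythroid markers rose. So did 2 of 5 T and NK and 1 of 7 neutrophil markers. The markers that fell under TET were 3 neutrophil markers and 1 stromal marker, Pdgfrb. Pdgfrb averaged 9.81 in saline and fell 3.01-fold (limma adjusted p = 1.4e-05). The part of these shifts in the results of the 6 genes was not tested. In whole cultures a change in the make-up of the cells and a change of mRNA per cell cannot be told apart.

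Other acyltransferases of glycerophospholipid synthesis and remodelling, some of which act on glycerol phosphate, mostly fell under TET, as did Lpcat1, Lpcat2 and Lpcat3. Of 13 such genes, 9 fell and 1 rose under TET (median −0.81, beside 0.09 over all genes and −0.19 over bright genes). All 9 that fell are bright genes, of which 42.5% fell under TET. Under TMT none fell and 2 rose (median 0.14, beside 0.01 over all genes), where 13.4% of all genes fell and 14.3% rose. Under TET the largest falls were Taz (tafazzin, which remodels cardiolipin; 3.46-fold, −1.79, SE 0.25, adjusted p = 1.8e-04) and Gpam (a mitochondrial glycerol phosphate acyltransferase; 2.69-fold, −1.43, SE 0.20, adjusted p = 2.2e-04). Gpat3, of the same glycerol phosphate step, rose 1.65-fold under TMT and 1.74-fold under TET, and Agpat2 rose 1.61-fold under TMT and fell 2.43-fold under TET.

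Phospholipases A make the lysophospholipids that the 6 enzymes use, and lysophospholipases break them down. Of 27 measured genes of both kinds, 7 rose and 6 fell under TMT and 6 rose and 8 fell under TET. Of all genes, 14.3% rose and 13.4% fell under TMT, and 27.4% rose and 23.4% fell under TET. Tmem86a, encoding a lysoplasmalogenase, which breaks down ether-linked lysophospholipids, rose 15.5-fold under TMT (3.95, SE 0.20, adjusted p = 4.2e-07) and 10.5-fold under TET (3.40, SE 0.20, adjusted p = 4.7e-07). Pla2g6, encoding a calcium-independent phospholipase A, rose 6.35-fold under TET. Under TMT the largest falls were Ddhd1 (3.65-fold), a phospholipase A that acts on phosphatidic acid, and Pnpla7 (3.28-fold), a lysophospholipase. Under TET the largest fall was Abhd12 (2.24-fold), which hydrolyses lysophosphatidylserine. Among 9 genes of platelet-activating factor and ether lipids, the pathway that Lpcat2 completes, 1 rose and 1 fell under TMT, and 1 rose and 4 fell under TET. Pla2g7, encoding the plasma enzyme that degrades platelet-activating factor, rose 2.07-fold under TMT and 1.32-fold under TET, the only gene of that list that rose in either comparison. Far1, which supplies fatty alcohol to ether lipids, fell 2.31-fold under TMT and 3.52-fold under TET.

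**Figure D3:**
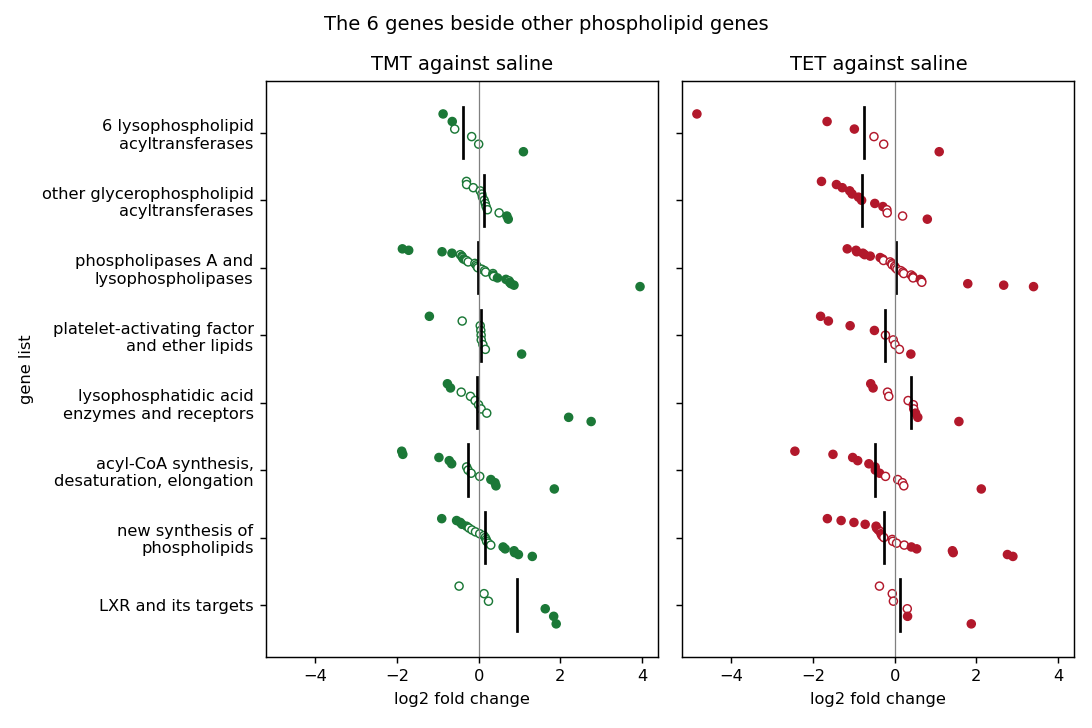
Log2 fold change against saline (horizontal axis) of the 6 genes and of 7 lists of other phospholipid genes, under TMT (left) and TET (right). Each point is a gene, filled where its adjusted p was under 0.05, and black bars are list medians; the other glycerophospholipid acyltransferases have a median of −0.81 under TET and 0.14 under TMT.

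Among genes at or above the median brightness, those whose signal over the 9 arrays correlated most closely with a member are given as a description, since the 3 groups form 3 clusters. For Lpcat1 they were Pycard, which encodes the inflammasome adaptor ASC (Pearson r = 0.998), Zfp263 and Rcn2 (both 0.997), whose log2 fold changes under TET were −0.97, −1.54 and −1.23, against −4.84 for Lpcat1. For Lpcat2 they were Acp2 (0.995), Snx18 (0.995) and Nelfb (0.995), all higher under TMT and lower under TET in their estimates (1.05 and −1.10 for Acp2, a lysosomal acid phosphatase). For Lpcat3 they were Ostc, Sec24c and Rap2b (all 0.998), with TMT differences of 0.03, 0.01 and 0.08 and TET differences of −1.27, −1.13 and −1.84. For Lpcat4 the closest was Otud1 (0.941), for Mboat1 Fancc (0.932), and for the brightest probe set of Lpgat1 the gene 1600020E01Rik (0.998).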

How the data were processed

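Per the labels' protocols, 50 ng of total RNA was amplified (Nugen WT-Ovation Pico) and read as biotin-labelled target on Affymetrix whole-genome mouse arrays. Per the submitters' processing notes, RMA and affy (versions not stated) gave the deposited log2 signals, which ran from 2.05 to 14.8; that the logarithm is to base 2 was read off this range. Whether the 9 arrays went through RMA together is not given in the sources here. The median was 6.11 to 6.12 on TMT, 6.16 to 6.19 on TET and 6.08 to 6.09 on saline arrays.

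Of 45037 probe sets, 34945 named 1 gene by the platform annotation, 932 several and 9160 none; the last 2 kinds were left out. Symbols were updated through gene identifiers (204 were not found in GRCm38.p6), which left 18193 genes, read at the probe set of highest mean. All 9 arrays entered 1 fit of group means in limma 3.58.1 in R 4.3.3 (6 residual and 3.99 prior degrees of freedom), with Benjamini-Hochberg adjustment over 18193 genes, or over 34945 probe sets where single probe sets are given. Scripts were tested on simulated data. With 3 arrays against 3, an exact permutation test cannot give a p below 0.1, so none was used; precision is limited by array number.

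The members and the lists (7 pathway lists with 99 measured genes of 105, and 6 marker lists) were chosen with earlier results of these data known. Named list genes were drawn from the largest rises and falls per list and organotin, up to 2 each, that passed and did not overlap saline. Not all such genes are named. Likeness was measured over the 9097 genes at or above the median mean signal (6.82). Alternatives were leaving out each array, a replicate block, median centring, a repeated quantile normalization, bright genes alone, the mean over probe sets, dropping probe sets able to bind related transcripts (names ending in x, s or a), testing all probe sets, array weights, trended robust moderation, the 6 arrays of a comparison alone, a test against a 1.2-fold change and, added after seeing the data, the brightest probe set in saline.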

Additional observations from a re-analysis of the deposited data

How the results depend on the processing

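Of 375 values of the 6 genes under 21 alternatives, 345 kept their direction and their side of the threshold, 13 came to pass, 7 no longer passed and 10 changed sign. The sign of Lpcat3 under TMT, a difference near 0, ran from −0.075 to 0.12 when 1 array was left out and was −0.0070 after median centring. Lpgat1 turned to −0.24 under TET with the mean over probe sets. It turned to −1.36 (TET against saline) and −0.89 (TET against TMT) both without probe sets that may bind related transcripts and with the brightest probe set in saline. Mboat1 turned to 0.12 under TET without probe sets that may bind related transcripts. For Lpgat1 and Mboat1 these alternatives read other probe sets; for Lpcat3 the cause was not tested. The members called under TMT were 5 with the mean over probe sets and 5 with array weights, against 3. The array weights were 8.13 for TMT replicate 1, 0.40 for replicate 2 and 0.96 for replicate 3, so that alternative rests largely on 1 TMT array. Over all 18193 genes, 5429 passed under TMT with the mean over probe sets and 8756 with array weights, against 5049. Under TET 0 members rose and 4 fell, and for TET against TMT 1 rose and 4 fell, both without probe sets that may bind related transcripts and with the brightest probe set in saline; with the mean over probe sets 0 rose and 3 fell under TET, and 1 rose and 3 fell for TET against TMT. Over all genes 4865 rose and 4388 fell under TET with the brightest probe set in saline, and 5018 and 4365 for TET against TMT. Without probe sets that may bind related transcripts they were 4390 and 3986, and 4535 and 3821, of 16591 genes. With the mean over probe sets they were 5253 and 4762, and 5512 and 4642. When 1 array was left out, the members called ran from 3 to 4 under TMT, 4 to 5 under TET and 4 to 5 for TET against TMT. Of all genes, 3971 to 5522 passed in those fits under TMT, 7540 to 9372 under TET and 8006 to 9232 for TET against TMT.

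Of the 99 other phospholipid genes, 44 passed under TMT, 60 under TET and 63 for TET against TMT. Of the 99, 69 are at or above the median brightness. With bright genes tested alone, 36 of these 69 passed under TMT, 50 under TET and 49 for TET against TMT. Of all bright genes, 50.9%, 66.7% and 68.9% passed in the same comparisons, so these lists were near that background. The counts over the 99 genes were 29, 37 and 36 when tested against a 1.2-fold change. When 1 array was left out, they ran from 35 to 47, 50 to 62 and 53 to 64. Over all genes, 5049 passed under TMT, against 8756 with array weights and 2760 against a 1.2-fold change; under TET 9247 passed, against 5143 with the 1.2-fold test, and for TET against TMT 9425, against 5374. The deviations of same-numbered arrays correlated at r from −0.15 to 0.31 over 9 pairs. Those of different-numbered arrays ran from −0.30 to 0.26 over 18 pairs. Same-numbered saline and TMT arrays had r of 0.16, 0.31 and 0.02, and saline replicate 1 was closer to TMT replicate 3 (0.26) than to TMT replicate 1. The ranges overlap and the numbers were not taken as pairs, although a weak pairing of saline and TMT arrays cannot be told from these values. With the replicate number as a block the members called were 3, 4 and 5, as without it, and no call of a member changed.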

Other observations

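Further lists of phospholipid genes were measured beside the 6 acyltransferases. Of all genes, 14.3% rose and 13.4% fell under TMT, and 27.4% rose and 23.4% fell under TET. Of bright genes tested alone, 26.7% rose and 24.2% fell under TMT, and 24.2% rose and 42.5% fell under TET. In the new synthesis of phospholipids, 6 of 21 genes rose and 5 fell under TMT, and 6 rose and 9 fell under TET. Pcyt1a, encoding the enzyme that limits phosphatidylcholine synthesis, rose 7.43-fold under TET (2.89, SE 0.13, limma adjusted p = 7.0e-08), and Chka, encoding choline kinase, rose 6.77-fold under TET (2.76, SE 0.13, limma adjusted p = 1.1e-07) and 1.96-fold under TMT. Crls1, encoding cardiolipin synthase, fell 3.13-fold under TET. The median of that list was −0.27 under TET and 0.16 under TMT.

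Of 13 genes of acyl-CoA synthesis, desaturation and elongation, 4 rose and 5 fell under TMT, and 1 rose and 8 fell under TET. Acsl3, encoding an acyl-CoA synthetase, was the gene that rose under TET (4.35-fold, 2.12, SE 0.21). Scd2, encoding a desaturase, rose 3.61-fold under TMT. Fads1, encoding the desaturase that makes arachidonic acid, fell 3.62-fold under TMT and 5.44-fold under TET, although 1 of its 2 probe sets did not share that direction. Elovl6 fell 3.69-fold under TMT, where 3 of its 3 probe sets were lower, and 2.85-fold under TET, where 2 were. Of 10 lysophosphatidic acid genes, 2 rose and 2 fell under TMT, and 3 rose and 2 fell under TET. Plpp1, encoding a lipid phosphate phosphatase, rose 6.74-fold under TMT, and Plpp3 rose 2.97-fold under TET. Of 6 genes of LXR and its targets, Lpcat3 not among them, 3 rose under TMT and 2 under TET, and 0 fell in either comparison. Nr1h3, encoding LXRα, rose 3.57-fold under TMT (1.84, SE 0.26), a comparison in which Lpcat3 differed by 0.00070 (95% interval −0.29 to 0.29). Under TET Nr1h3 differed by −0.06 (SE 0.26, limma adjusted p = 0.86), where Lpcat3 fell 3.15-fold. Nr1h3 was 3.72-fold lower in TET than in TMT cells (−1.90, SE 0.26, limma adjusted p = 1.6e-04), and Lpcat3 3.15-fold lower. Abcg1 rose 3.73-fold under TMT and 3.67-fold under TET, and Abca1 3.09-fold and 1.24-fold. Between TET and TMT cells Abcg1 differed by −0.02 (SE 0.12, limma adjusted p = 0.88) and Abca1 by −1.31 (SE 0.10, limma adjusted p = 3.9e-06). In that comparison 0 of the 6 list genes rose and 2 fell, where 28.1% of all genes rose and 23.7% fell. A link between Nr1h3 and Lpcat3 was not tested.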
